A study of Homo sapiens with 58 samples.

Results

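The high dose of an ethanol extract of Pinelliae Tuber, the dried tuber of Pinellia ternata used in East Asian herbal medicine, was set against the DMSO vehicle in HepG2 cells. HepG2 is 1 established human line from a hepatocellular carcinoma, and it keeps many hepatocyte functions. The samples were taken by their labels, 3 libraries of the extract at 500 µg/mL and 3 libraries of the vehicle, all exposed for 24 h. These are 6 of the 58 libraries analysed, which fall into 24 groups of herbal formulas, single herbs and vehicle. Each is a strand-specific bulk mRNA library, per the labels' protocols, with reads assigned to genes. The same extract at 100 and 20 µg/mL, with 3 libraries each, and 3 of the other ethanol extracts at 500 µg/mL served for comparison. The vehicle is given as 0.1% DMSO in the labels and as 2% DMSO in the series text, and which of these the extract libraries carried is not given in the sources used here. Nothing says that the replicates came from separate cultures, so the p-values measure the spread between these libraries, which may be technical.

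Hepatocytes make cholesterol from acetyl-CoA through the mevalonate pathway. When membrane sterol is low, the transcription factor SREBP-2, encoded by SREBF2, is cut free from its membrane anchor and turns on the genes of sterol synthesis and uptake, while SREBP-1, encoded by SREBF1, acts mainly on fatty acid genes. Plant extracts are also read by xenobiotic sensors. The aryl hydrocarbon receptor (AhR) turns on CYP1A1, and NRF2 turns on genes of glutathione synthesis and of aldehyde and quinone reduction.

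The marker levels went with the liver origin given by the HepG2 label. The markers were not chosen to tell HepG2 from other liver lines. All 15 hepatocyte and hepatoma markers passed the filter of at least 1 CPM, the read count normalised to library size, in at least 3 libraries, and their summed level was 48349 to 49740 CPM in the high dose and 47898 to 48130 CPM in the vehicle. Of 9 fibroblast markers 3 passed, with a summed level of 49.69 to 52.99 CPM in the high dose and 65.26 to 70.79 CPM in the vehicle, and 4 markers were at 0 in every library of each group; 2 of the 3 tested were called lower. Leukocyte markers, 3 of 9 tested, summed to 1489 to 1622 CPM in the high dose and 1326 to 1407 CPM in the vehicle, nearly all of it from LYZ, which encodes lysozyme; LYZ and CD68 were called higher, and lost their calls in 3 and 7 of 11 alternatives. Of the 15 hepatocyte markers 3 were called lower. Intestinal markers summed to 477.9 to 498.2 CPM in the high dose and 510.8 to 523.3 CPM in the vehicle, with 1 of 3 called lower. Endothelial, intestinal and lung markers had 1 of 7, 3 of 7 and 1 of 6 tested. Endothelial markers summed to at most 4.17 CPM in the high dose and 4.98 CPM in the vehicle. The part of these differences in the results below was not tested. The high dose libraries held 27357670 to 28487847 expected counts and the vehicle libraries 24077535 to 26409029. All titles used here carry the label BatchC. The vehicle titles carry a number prefix of their own and the Pinelliae Tuber titles another, so prefix and extract cannot be told apart against the vehicle, whereas the high and low doses share a prefix. Since the RNA is bulk and scaled to a total, fewer cells and less RNA per cell cannot be told apart.

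Across 13945 genes tested, edgeR's quasi-likelihood test with Benjamini-Hochberg adjustment at 0.05 called 1272 genes higher (9.12%) and 916 lower (6.57%) in the high dose than in the vehicle, 15.7% in all. Without vehicle replicate 3 the 2188 calls dropped to 1329. The changes were small: 32 called genes (0.229%) differed at least 2-fold. The libraries of the groups did not overlap for 34.9% of the genes tested, and the median log2 fold change of all genes was 0.0090. Among called genes of at least 5 CPM whose groups did not overlap, CYP1A1 had the largest rise, and MVD and HMGCS1 of sterol synthesis and ACSS2, which makes acetyl-CoA, were among the 15 largest falls.

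**Figure D1:**
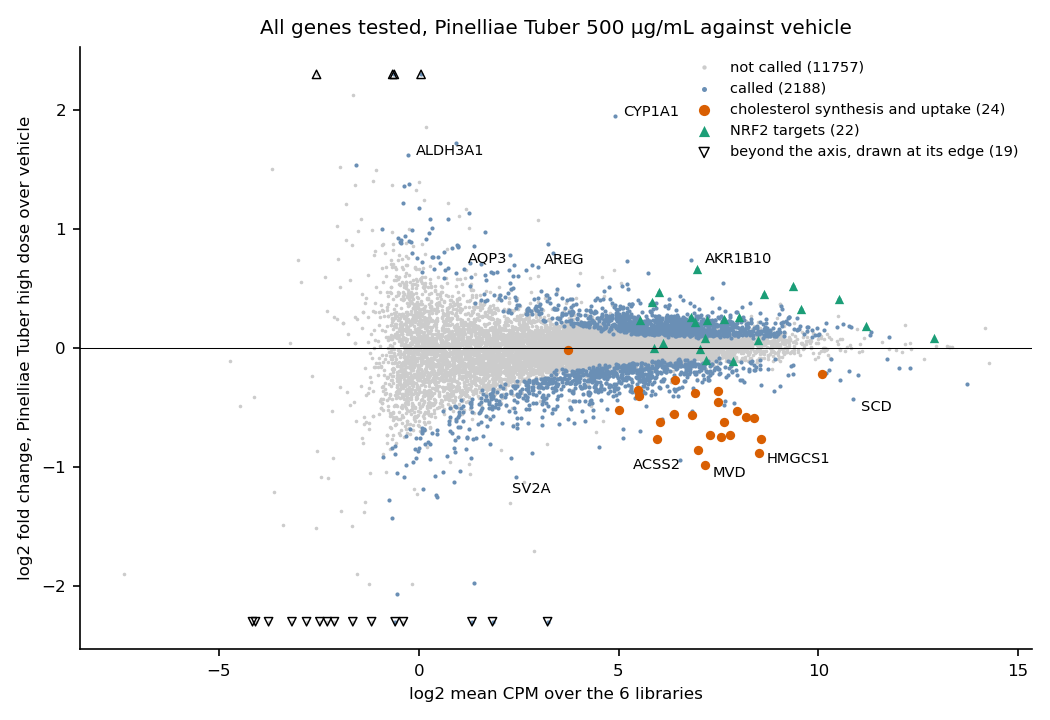
Each point is 1 of 13945 genes, with the log2 of its mean CPM over the 6 libraries on the x axis and the log2 fold change of Pinelliae Tuber 500 µg/mL over vehicle on the y axis; open triangles are genes beyond the axis. The 24 cholesterol genes lie below 0, MVD lowest at -0.98, while most NRF2 targets lie above it.

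Genes of the mevalonate and sterol pathway fell together. Of the 25 genes on the list of cholesterol synthesis and uptake, 24 had enough reads to be tested, and 23 of them were lower in the high dose and 0 higher, with a median log2 fold change of -0.57 against 0.0090 for all genes. Of all genes, 6.57% were called lower and 9.12% higher. The count of lower genes was 23 to 24 over 11 other ways of processing or leaving out 1 library. INSIG1, which encodes a sterol-dependent anchor of the SREBP proteins, did not pass the filter and was listed at no more than 0.0739 CPM in a high dose library and 0.370 CPM in a vehicle library. Only PMVK, the gene of phosphomevalonate kinase, was tested and not called. Its level was 14.5, 13.5 and 11.8 CPM in the high dose and 12.9, 13.9 and 13.3 CPM in the vehicle, and its log2 fold change was -0.017 ± 0.071 (SE; adjusted p = 0.91).

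HMGCS1 encodes the synthase that makes HMG-CoA, and the gene lies on chromosome 5 of GRCh38 at chr5:43289395-43313512, minus strand. It had 261, 256 and 257 CPM in the high dose libraries and 479, 484 and 463 CPM in the vehicle libraries. Every high dose library was lower than every vehicle library, and the level fell 1.84-fold (log2 -0.88 ± 0.038, SE; adjusted p = 4.9e-22).

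The next steps phosphorylate and decarboxylate mevalonate. MVK, mevalonate kinase, had 45.2, 45.2 and 47.99 CPM in the high dose and 77.5, 78.8 and 79.5 CPM in the vehicle (log2 -0.77 ± 0.044, SE; adjusted p = 7.5e-18). MVD, the decarboxylase, had 94.8, 92.3 and 103 CPM in the high dose and 191, 191 and 190.1 CPM in the vehicle (log2 -0.98 ± 0.072, SE; adjusted p = 2.3e-14). MVD had the largest fall on the list, close to 2-fold at 1.97-fold, and its groups were well apart. IDI1, which isomerises the isoprenoid unit, fell by 0.73 on the log2 scale, and FDPS, which joins these units to farnesyl diphosphate, fell by 0.46.

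The branch committed to sterols moved the same way. Squalene is made by FDFT1, oxidised by SQLE and closed to lanosterol by LSS. FDFT1 had 288, 274 and 279 CPM in the high dose and 487, 463 and 479 CPM in the vehicle (log2 -0.76), SQLE changed by -0.59 and LSS by -0.73. The enzymes from lanosterol onward followed, with log2 fold changes of -0.53 for CYP51A1, -0.62 for TM7SF2, -0.62 for MSMO1, -0.40 for NSDHL, -0.52 for HSD17B7, -0.27 for EBP and -0.56 for SC5D. DHCR7, a late reductase of the pathway that is mutated in Smith-Lemli-Opitz syndrome, had 145, 141 and 137 CPM in the high dose and 239, 229.5 and 242 CPM in the vehicle, with a log2 fold change of -0.75 ± 0.035 (SE; adjusted p = 5.8e-21). No high dose library reached the lowest vehicle library.

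Genes of sterol uptake and traffic fell as well. STARD4, a cytosolic sterol carrier, changed by -0.55 and NPC1L1, the sterol importer blocked by ezetimibe, by -0.35. SREBF2, the regulator of the pathway, was itself lower, with 154, 154 and 164 CPM in the high dose and 204, 204 and 200.2 CPM in the vehicle (log2 -0.37 ± 0.038, SE; adjusted p = 8.3e-10).

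The sequence just before the RefSeq start of these genes is shown for HMGCS1, MVD, MVK and SREBF2, since the list moved together and SREBF2 is its regulator. Each window is the 250 bases before the start given by RefSeq on GRCh38.p14, printed on the strand of the gene. These starts lie 100, 70, 539 and 26 bases from the GENCODE starts of HMGCS1, MVD, MVK and SREBF2. The HMGCS1 window thereby overlaps the gene as placed above, and whether the other windows overlap their genes is not given here. For MVK the distance of 539 bases is longer than the window of 250 bases. Capitals mark the motif CCAAT, bound by NF-Y, or its reverse complement ATTGG, and in SREBF2 also the sterol regulatory element, with any base in its centre; both strands were searched and the motifs marked in these 4 windows do not overlap.
HMGCS1, chr5:43313413-43313662, minus strand: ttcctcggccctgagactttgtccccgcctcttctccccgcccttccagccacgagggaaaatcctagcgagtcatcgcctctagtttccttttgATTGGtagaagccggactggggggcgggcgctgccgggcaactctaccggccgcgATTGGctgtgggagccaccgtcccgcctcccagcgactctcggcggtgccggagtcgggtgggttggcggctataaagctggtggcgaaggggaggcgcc
MVD, chr16:88663092-88663341, minus strand: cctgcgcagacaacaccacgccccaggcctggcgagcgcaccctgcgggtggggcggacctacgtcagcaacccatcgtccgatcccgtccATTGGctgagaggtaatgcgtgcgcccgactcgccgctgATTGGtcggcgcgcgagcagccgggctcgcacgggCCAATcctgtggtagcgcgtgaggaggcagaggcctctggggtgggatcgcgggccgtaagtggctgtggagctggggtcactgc
MVK, chr12:109573544-109573793, plus strand: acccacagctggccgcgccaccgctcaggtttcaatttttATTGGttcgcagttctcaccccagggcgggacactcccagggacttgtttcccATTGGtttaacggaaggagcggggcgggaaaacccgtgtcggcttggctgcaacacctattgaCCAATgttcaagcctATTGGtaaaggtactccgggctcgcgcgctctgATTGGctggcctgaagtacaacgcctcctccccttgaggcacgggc
SREBF2, chr22:41832855-41833104, plus strand: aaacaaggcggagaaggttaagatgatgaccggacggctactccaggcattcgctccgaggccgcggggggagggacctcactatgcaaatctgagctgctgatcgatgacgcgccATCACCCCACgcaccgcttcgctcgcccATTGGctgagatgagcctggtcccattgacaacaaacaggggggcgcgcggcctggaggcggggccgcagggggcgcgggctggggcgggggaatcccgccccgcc
CCAAT lay in 15 of the 18 list members with a matched window (83.3%) and in 32% of all 35116 promoter windows of the table. That sterol regulatory element lay in 1 of the 18 (5.56%), SREBF2, and in 0.125% of all windows. A match of letters does not show that a factor was bound in these cells.

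Fatty acid genes moved with the sterol genes in part. Of the list of fatty acid synthesis and LXR targets 16 genes were tested, and 11 were lower (68.8%) and 0 higher, against 6.57% and 9.12% of all genes. The median log2 fold change was -0.31. Over the 11 alternatives 9 to 11 were lower. ACSS2, which makes acetyl-CoA from acetate, had 63.1, 66.6 and 63.05 CPM in the high dose and 122, 121 and 127 CPM in the vehicle. It was the clearest fall of the list, 1.92-fold with no overlap (log2 -0.94 ± 0.037, SE; adjusted p = 2.4e-23). The desaturase gene FADS2 had 146, 134 and 138 CPM in the high dose and 233, 237 and 236 CPM in the vehicle (log2 -0.76), its neighbour FADS1 changed by -0.48, and SCD, which makes oleate, by -0.43. ACLY, the source of cytosolic acetyl-CoA, changed by -0.36, the elongase ELOVL6 by -0.38 and PNPLA3, a lipase of lipid droplets with a common variant linked to fatty liver, by -0.44. FASN, fatty acid synthase, had 1317, 1291 and 1456 CPM in the high dose and 1622, 1667 and 1610.0 CPM in the vehicle (log2 -0.27 ± 0.068, SE; adjusted p = 0.0042). SREBF1 itself changed by -0.26, a call that was lost without high dose replicate 1 (adjusted p = 0.059). ABCG5, a sterol exporter and LXR target, was not called, with 12.3, 14 and 15.9 CPM in the high dose and 11.98, 13.1 and 15.1 CPM in the vehicle.

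**Figure D2:**
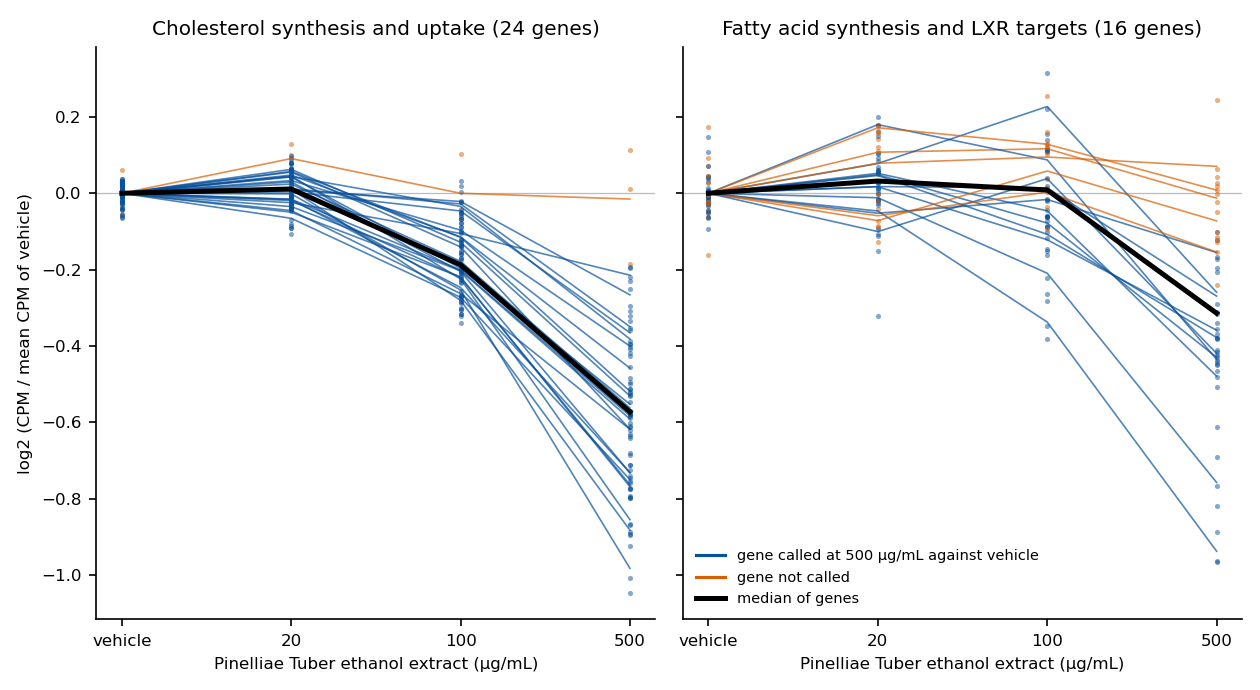
The y axis is the log2 of a gene's CPM over its mean in the vehicle libraries, and the x axis is the vehicle and the 3 doses in µg/mL; points are single libraries, thin lines join group means of a gene and the thick line is the median of genes. The cholesterol genes stay near 0 at 20 µg/mL, reach a median of -0.19 at 100 µg/mL and -0.57 at 500 µg/mL, with PMVK as the flat line.

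Among the 7 tested AhR targets 3 were higher (42.9%) and 0 lower, against 9.12% and 6.57% of all genes. CYP1A1, the monooxygenase that is the classical readout of the receptor and lies on chromosome 15, had 50.01, 47.95 and 46.7 CPM in the high dose and 12.7, 10.8 and 14.04 CPM in the vehicle. The libraries of the groups were far apart, and the rise was 3.86-fold (log2 1.95 ± 0.10, SE; adjusted p = 2.5e-20). ALDH3A1, an aldehyde dehydrogenase of the same gene battery, was rare, with 1.44, 1.03 and 1.296 CPM in the high dose and 0.411, 0.484 and 0.315 CPM in the vehicle, and rose 3.09-fold (adjusted p = 4.3e-06). NQO1, a quinone reductase that answers to AhR and to NRF2, had 841, 855 and 819 CPM in the high dose and 685, 661 and 663 CPM in the vehicle (log2 0.32 ± 0.039, SE; adjusted p = 2.8e-08). TIPARP and AHRR, 2 feedback genes of the receptor, were not called, at log2 -0.069 ± 0.069 and -0.065 ± 0.28 (SE). CYP1A2 was at most 0.252 CPM in any library of the high dose, CYP2S1 was not called at 0.033, and CYP1B1, UGT1A6 and LRAT did not pass the filter.

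Among NRF2 targets, 13 of the 22 tested were higher (59.1%) and 1 lower (4.55%), against 9.12% and 6.57% of all genes. The median log2 fold change was 0.24, and 12 to 14 were higher over the 11 alternatives. AKR1B10, an aldo-keto reductase, had 156, 156 and 144 CPM in the high dose and 94.98, 93.3 and 98.9 CPM in the vehicle (log2 0.67 ± 0.054, SE; adjusted p = 5e-13). This was the largest rise on the list, 1.59-fold with no overlap. Its relatives AKR1C2 and AKR1C1 changed by 0.52 and 0.41, with counts that RSEM divides between near-identical genes and that are therefore uncertain. For glutathione synthesis, the subunit genes GCLM and GCLC rose. GCLM had 71.05, 81.1 and 73.9 CPM in the high dose and 56.5, 54.8 and 52.03 CPM in the vehicle (log2 0.47 ± 0.062, SE), and GCLC changed by 0.26 ± 0.043 (SE). ABCC2, an exporter of glutathione and bilirubin conjugates, had 463, 483 and 446 CPM in the high dose and 349, 335 and 335 CPM in the vehicle (log2 0.45, adjusted p = 3.4e-10). TXNRD1, SRXN1 and GSR, which recycle thioredoxin, peroxiredoxin and glutathione, changed by 0.26, 0.22 and 0.24. HMOX1, heme oxygenase, also a member, was not called, with 59, 60.03 and 58.8 CPM in the high dose and 58.8, 57.1 and 61.5 CPM in the vehicle. PGD of the pentose phosphate pathway was the member called lower, at -0.11, and lost its call without vehicle replicate 2 and with no filter on low counts.

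Genes of fatty acid breakdown and drug transport gave fewer calls. Of 16 tested PPARA targets and oxidation genes 4 were higher (25%) and 1 lower (6.25%), against 9.12% and 6.57% of all genes. The median was 0.020. CPT1A, the gate for fatty acids into mitochondria, had 53.2, 50.95 and 48.8 CPM in the high dose and 37.5, 39.1 and 38.9 CPM in the vehicle (log2 0.40 ± 0.063, SE; adjusted p = 8e-06). PLIN2, a lipid droplet coat, changed by 0.23, ACADVL, a dehydrogenase of long fatty acids, by 0.22 and VNN1, a pantetheinase, by 0.85 from under 3 CPM. TXNIP, the glucose-sensitive thioredoxin inhibitor, fell by 0.31 on the log2 scale. Of 9 tested PXR and CAR targets 3 were higher (33.3%), with ABCC2 the largest of them. ABCB1 and ALAS1 changed by 0.12 and 0.11 and lost their calls in 9 of the 11 alternatives each. Of 9 bile acid and FXR genes 1 was lower (11.1%), the phospholipid exporter ABCB4, at -0.23. CYP3A4, CYP7A1 and FGF19 did not pass the filter.

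Stress lists moved in both directions. Of 22 tested ATF4 and CHOP targets 7 were lower (31.8%) and 2 higher (9.09%), against 6.57% and 9.12% of all genes. The median was -0.07. ASNS, asparagine synthetase, had 33.8, 34.99 and 33.9 CPM in the high dose and 42.2, 44.9 and 44.4 CPM in the vehicle (log2 -0.36 ± 0.052, SE; adjusted p = 2e-06). TRIB3, a pseudokinase induced by ATF4, had 104, 104 and 112 CPM in the high dose and 140.4, 136 and 142 CPM in the vehicle (log2 -0.39). In both genes every high dose library was below the vehicle. The serine synthesis genes PHGDH and PSPH changed by -0.20 and -0.18, the glycine transporter gene SLC6A9 by -0.33 and ALDH1L2, of mitochondrial folate metabolism, by -0.51. SLC7A11, which imports cystine and is also an NRF2 target, went the other way at 0.38, as did the secreted STC2 at 0.27. DDIT3, which encodes CHOP, was not called, with 9.68, 12.4 and 10.8 CPM in the high dose and 13, 11.8 and 12.4 CPM in the vehicle.

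Chaperone genes differed by small amounts, from -0.26 to 0.29 on the log2 scale in the heat shock list. Of 16 endoplasmic reticulum genes 3 were higher (18.8%) and 1 lower (6.25%), and the number higher dropped to 1 without vehicle replicate 2, without vehicle replicate 3, without high dose replicate 2 or without high dose replicate 3. HSPA5, the main chaperone of that compartment, was not called at 0.035 ± 0.032 (SE). Of 13 heat shock genes 6 were higher (46.2%) and 3 lower (23.1%), against 9.12% and 6.57% of all genes. HSPA8, the constitutive HSP70, had 1979, 1904 and 1887 CPM in the high dose and 1706, 1699 and 1687 CPM in the vehicle (log2 0.18), and HSPH1, its exchange factor, changed by 0.17. The inducible HSPA1A, which has a near-identical copy, went down at -0.26, losing its call without vehicle replicate 3 (adjusted p = 0.053). The count of higher heat shock genes fell to 3 without vehicle replicate 1, without vehicle replicate 3 or without high dose replicate 1, and that of lower ones to 1 without vehicle replicate 3. Of 19 tested p53 targets 3 were lower (15.8%) and 0 higher, with 2 to 6 lower over the alternatives. CDKN1A, the cell cycle inhibitor p21, had 77.4, 77.1 and 77.2 CPM in the high dose and 103, 101 and 102 CPM in the vehicle (log2 -0.40 ± 0.036, SE; adjusted p = 8.6e-12), and DDB2, of nucleotide excision repair, changed by -0.17.

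Glycolysis and hypoxia genes were mostly higher by small amounts. Of 25 tested, 15 were higher (60%) and 2 lower (8%), against 9.12% and 6.57% of all genes, with a median of 0.17. The number higher dropped to 9 without vehicle replicate 2 and to 10 without vehicle replicate 1. Against the same vehicle libraries, the list median was 0.14 in the low dose and 0.056 in the medium dose. In each of these doses 1 member was called higher and 0 lower. The list median therefore did not rise in the order of the doses, and in the low dose it was close to that of the high dose. HK2, the inducible hexokinase, had 133, 131 and 136 CPM in the high dose and 104, 108 and 100.5 CPM in the vehicle (log2 0.36 ± 0.051, SE; adjusted p = 1.5e-06). PDK1, a pyruvate dehydrogenase kinase, had 32.95, 32.95 and 28.4 CPM in the high dose and 21.1, 21.99 and 27.6 CPM in the vehicle (log2 0.42), and vehicle replicate 3 came close to the lowest high dose library. LDHA, ENO1, PGK1 and PKM of the glycolytic chain changed by 0.21, 0.20, 0.17 and 0.14. SLC2A1, the glucose transporter GLUT1, ran against the list, with 450.1, 469 and 482 CPM in the high dose and 581, 569 and 597 CPM in the vehicle (log2 -0.32 ± 0.037, SE; adjusted p = 1.6e-08), as did ALDOC at -0.36, whose call was lost without vehicle replicate 3 (adjusted p = 0.057). CA9, a hypoxia marker with at most 1.15 CPM in the high dose, was called at 1.36 and lost the call in 5 alternatives, each of which left out 1 library.

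Growth factor, inflammatory and iron genes gave single changes. Of 14 ERK feedback genes and EGFR ligands 3 were higher (21.4%) and 2 lower (14.3%), against 9.12% and 6.57% of all genes. The ligand gene AREG had 10.7, 9.49 and 8.97 CPM in the high dose and 6.17, 6.14 and 5.86 CPM in the vehicle (log2 0.68 ± 0.10, SE; adjusted p = 1.2e-06), and EREG, a second ligand gene on chromosome 4, had 1.55, 1.88 and 1.61 CPM in the high dose and 0.782, 1.12 and 0.5899 CPM in the vehicle. Both ligands rose with no overlap, while DUSP6, a phosphatase that ERK induces against itself, changed by -0.27 and ETV4 by -0.15. Of 18 immediate early, SRF and YAP targets 4 were lower (22.2%) and 1 higher (5.56%), and 2 were lower without vehicle replicate 3 or without high dose replicate 1. The higher one, MYC, lost its call in 7 of the 11 alternatives. EGR1 had 8.17, 7.91 and 9.32 CPM in the high dose and 12.7, 11.6 and 11.9 CPM in the vehicle (log2 -0.51 ± 0.091, SE). Of 10 tested NF-kB and acute phase genes 3 were higher (30%) and 0 lower. They were the inhibitor NFKBIA at 0.25, the chemokine CCL20 at 0.52 and the apoptosis inhibitor BIRC3 at 0.63. Of 16 iron and BMP genes 1 was higher (6.25%) and 4 lower (25%). The number lower was 1 without vehicle replicate 1 or without high dose replicate 1, and 2 without high dose replicate 3. TFRC, the transferrin receptor, had 593, 612 and 599.5 CPM in the high dose and 475, 482 and 453 CPM in the vehicle (log2 0.36 ± 0.039, SE; adjusted p = 2.7e-09), TFR2 changed by -0.29, a call kept in all 11 alternatives, and HAMP, the hormone hepcidin, was not called at 0.052 ± 0.075 (SE).

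Most genes of hepatocyte function were not called. Of 24 secreted plasma protein genes 6 were lower (25%) and 0 higher, against 6.57% and 9.12% of all genes. The median was -0.022, and 3 were lower without vehicle replicate 3. ALB and AFP, the adult and fetal albumins, were not called at 0.0054 ± 0.038 and -0.017 ± 0.036 (SE), and FGB had 267, 257 and 266 CPM in the high dose and 266, 254 and 266 CPM in the vehicle. TTR, the carrier of thyroxine and retinol-binding protein, changed by -0.37 ± 0.073 (SE; adjusted p = 0.00025) and VTN, vitronectin, by -0.28. Of 19 hepatocyte transcription factors 1 was lower (5.26%), FOXA3 at -0.18, a call lost without vehicle replicate 2 or high dose replicate 2. Of 17 urea cycle and amino acid genes 1 was higher (5.88%) and 3 lower (17.6%). Of 10 gluconeogenesis and FOXO1 targets 2 were higher (20%) and 1 lower (10%). The number higher was 1 without vehicle replicate 1, vehicle replicate 3, high dose replicate 2 or high dose replicate 3. PCK1 was not called, with 4.21, 3.62 and 3.36 CPM in the high dose and 3.75, 3.91 and 3.74 CPM in the vehicle. IGFBP1, a secreted binder of insulin-like growth factors, had 63.8, 66.2 and 65.8 CPM in the high dose and 42.3, 38.4 and 46.01 CPM in the vehicle (log2 0.63 ± 0.12, SE; adjusted p = 0.00018).

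Further lists gave the counts that follow, beside 9.12% of all genes called higher and 6.57% lower. Of 30 ribosomal protein genes 0 were called by edgeR or by DESeq2, and 4 had an unadjusted p under 0.05 in edgeR's test. RPS29, a ribosomal gene that is not on this list, was called higher and is given below. With no filter on low counts 4 ribosomal genes were called higher, and over the 11 alternatives 0 to 4 were. Of the 8 metallothionein and zinc genes 0 were called by either tool and 2 had such a p, with MT1X at 0.046 ± 0.075 and MT2A at -0.035 ± 0.092 (SE). Of 20 mitosis genes 2 were higher (10%) and 1 lower (5%), with 1 to 3 higher and 0 to 4 lower over the alternatives, CCNB1, the mitotic cyclin, not among them at 0.057 ± 0.038 (SE). Of 21 replication genes 1 was lower, and PCNA, the polymerase clamp, was not called at -0.040 ± 0.042 (SE). Of 13 mitochondrially encoded genes 1 was lower, MT-CO1 at -0.30, while 4 were higher with no filter on low counts. Of 23 nuclear respiratory chain genes 3 were higher (13%), among them CYC1 at 0.29, and this count was 1 without vehicle replicate 2 and 5 without vehicle replicate 1. Clock genes gave 1 lower of 15, interferon genes 1 higher of 10, and histone genes 1 lower of 8. Autophagy and lysosome genes gave 2 higher and 2 lower of 20 (10% each way), with 1 higher without high dose replicate 1. Junction and cytoskeleton genes gave 2 higher and 2 lower of 19 (10.5% each way), with 1 and 1 without vehicle replicate 3 or high dose replicate 3.

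**Figure D3:**
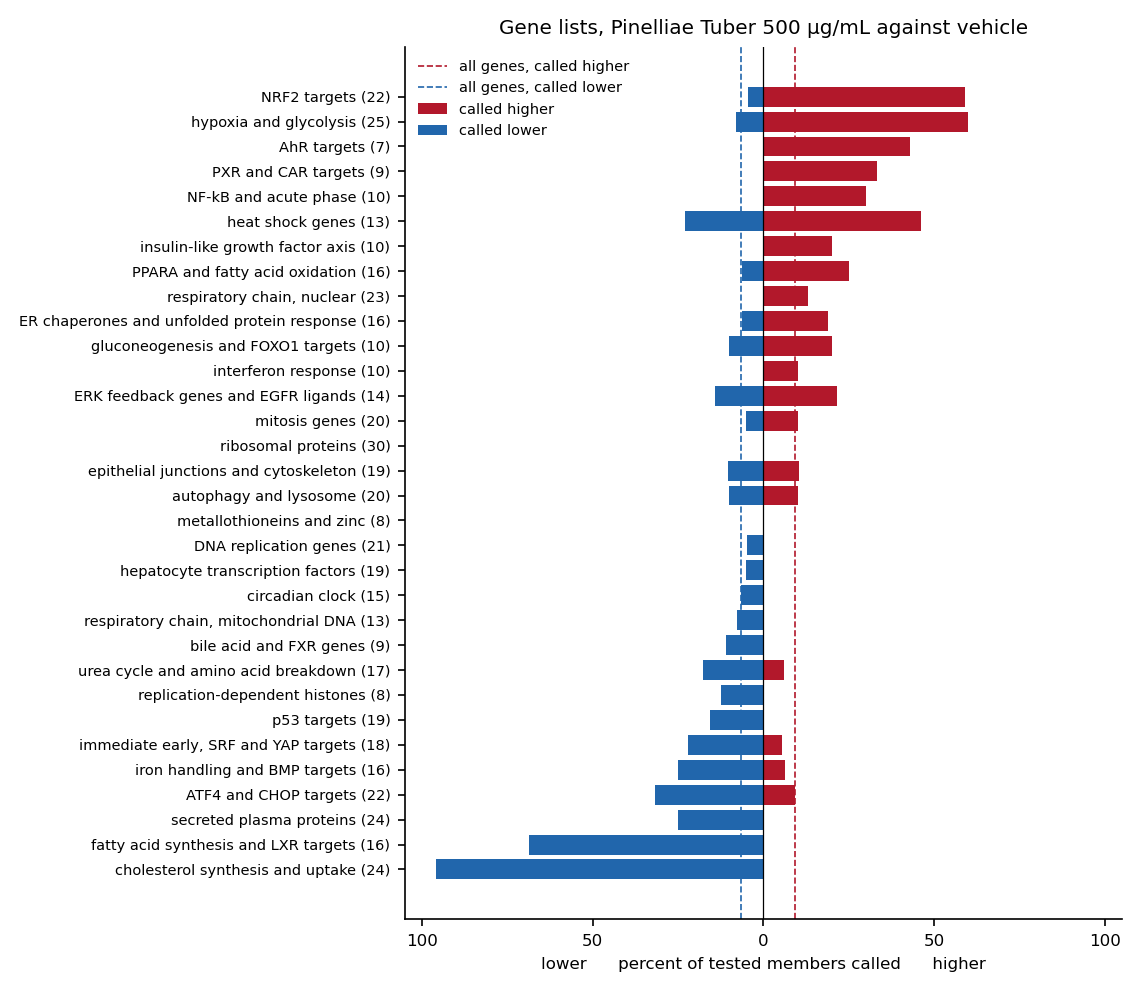
Bars give, for each of 32 gene lists with its number of tested members in brackets, the percent of members called higher (right) or lower (left) in Pinelliae Tuber 500 µg/mL than in vehicle; dashed lines are the 9.12% and 6.57% of all genes. Cholesterol genes reach 95.8% lower, and NRF2 targets 59.1% higher.

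Several of the largest changes lay outside the lists. SV2A, a synaptic vesicle protein gene, had 3.202, 3.84 and 3.36 CPM in the high dose and 6.71, 7.92 and 7.35 CPM in the vehicle (log2 -1.08 ± 0.093, SE; adjusted p = 2.6e-12). SCNN1A, the alpha subunit of the epithelial sodium channel, had 15.6, 17.6 and 16.6 CPM in the high dose and 29.01, 30.2 and 29.02 CPM in the vehicle (log2 -0.83 ± 0.055, SE; adjusted p = 8.2e-16). LPIN1, a phosphatidate phosphatase of triglyceride synthesis, had 26.6, 25.01 and 25.9 CPM in the high dose and 42.8, 43.8 and 43.97 CPM in the vehicle (log2 -0.75). P2RY8, a G protein-coupled receptor, changed by -0.92 and LIPG, endothelial lipase, by -0.88. The rule that picked these genes required that the groups not overlap, so their separation is no further result. On the rising side, AQP3, a channel for water and glycerol, had 6.8, 6.58 and 5.99 CPM in the high dose and 4.12, 4.24 and 3.58 CPM in the vehicle (log2 0.70 ± 0.11, SE; adjusted p = 9.7e-06). MARK2, a microtubule affinity kinase, changed by 0.73, the RNase gene ZC3H12D by 0.66, and the noncoding LINC02015, AC008760.2 and PWAR5 by 0.78, 0.66 and 0.60. TMEM160 at 0.87, RPS29 at 0.74 and GLTPD2 at 0.70 were called but lost their calls when single libraries were left out, RPS29 without high dose replicate 1, TMEM160 without vehicle replicate 2 and GLTPD2 without any 1 of vehicle replicates 1 and 2 and high dose replicates 1 and 3. RPS29, a ribosomal gene with many pseudogenes, had 193, 113 and 116 CPM in the high dose and 99.5, 73.5 and 79.9 CPM in the vehicle, and high dose replicate 1 stood above the rest. AC026464.6, AC087190.3, FMC1-LUC7L2 and LDHAP4 also met the rule but overlap or copy other genes, and no fold is given for them.

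The dose series placed most of the response at the top dose. All doses were tested against the same vehicle libraries, so the comparisons are not independent. At 20 µg/mL 33 genes were higher (0.237%) and 5 lower (0.0359%), at 100 µg/mL 17 were higher (0.122%) and 23 lower (0.165%), while the 500 µg/mL counts were 1272 and 916. The total of 38 at 20 µg/mL was 2 without vehicle replicate 1 and 89 without vehicle replicate 2, and the total of 40 at 100 µg/mL was 14 without its own replicate 1. Of the 24 cholesterol genes 0 were called at 20 µg/mL by edgeR's test and 0 had an unadjusted p under 0.05, with a list median of 0.012. At 100 µg/mL 9 of the 24 were lower and 0 higher. HMGCS1 had 469, 474 and 493 CPM at 20 µg/mL and 390.3, 391 and 392 CPM at 100 µg/mL, and its log2 fold change was 0.011 ± 0.038, -0.28 ± 0.038 and -0.88 ± 0.038 (SE) at 20, 100 and 500 µg/mL. At 100 µg/mL its libraries lay between those of the vehicle and of 500 µg/mL without touching either. ACSS2 gave -0.047, -0.34 and -0.94 over the same doses, and LPIN1 -0.052, -0.37 and -0.75. The 100 µg/mL calls of HMGCS1, ACSS2 and LPIN1 had adjusted p of 9.8e-06, 9.5e-08 and 1.2e-07.

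CYP1A1 had a steeper course. It had 14.2, 12.2 and 11.2 CPM at 20 µg/mL and 16.3, 14.3 and 12.6 CPM at 100 µg/mL, values that overlap the vehicle, and was called only at 500 µg/mL among the 3 doses against the vehicle. AKR1B10, AREG and AQP3 were likewise not called at 100 µg/mL, with log2 fold changes of 0.060, 0.088 and 0.16. A few genes differed from the vehicle at every dose instead. CDKN1A had 83.4, 84.9 and 86.01 CPM at 20 µg/mL and 79.7, 85.5 and 87.5 CPM at 100 µg/mL, and its log2 fold change was -0.27, -0.28 and -0.40 at 20, 100 and 500 µg/mL, called each time. SLC7A11 was called at all doses as well, at 0.30, 0.30 and 0.38, as were CCL20 at 0.45, 0.64 and 0.52 and PWAR5 at 0.58, 0.48 and 0.60. IGFBP1 was called at 20 and 500 µg/mL, at 0.63 and 0.63, but not at 100 µg/mL, at 0.26. For these genes, a shared difference of all extract libraries from the vehicle libraries and an effect of the extract cannot be told apart.

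**Figure D4:**
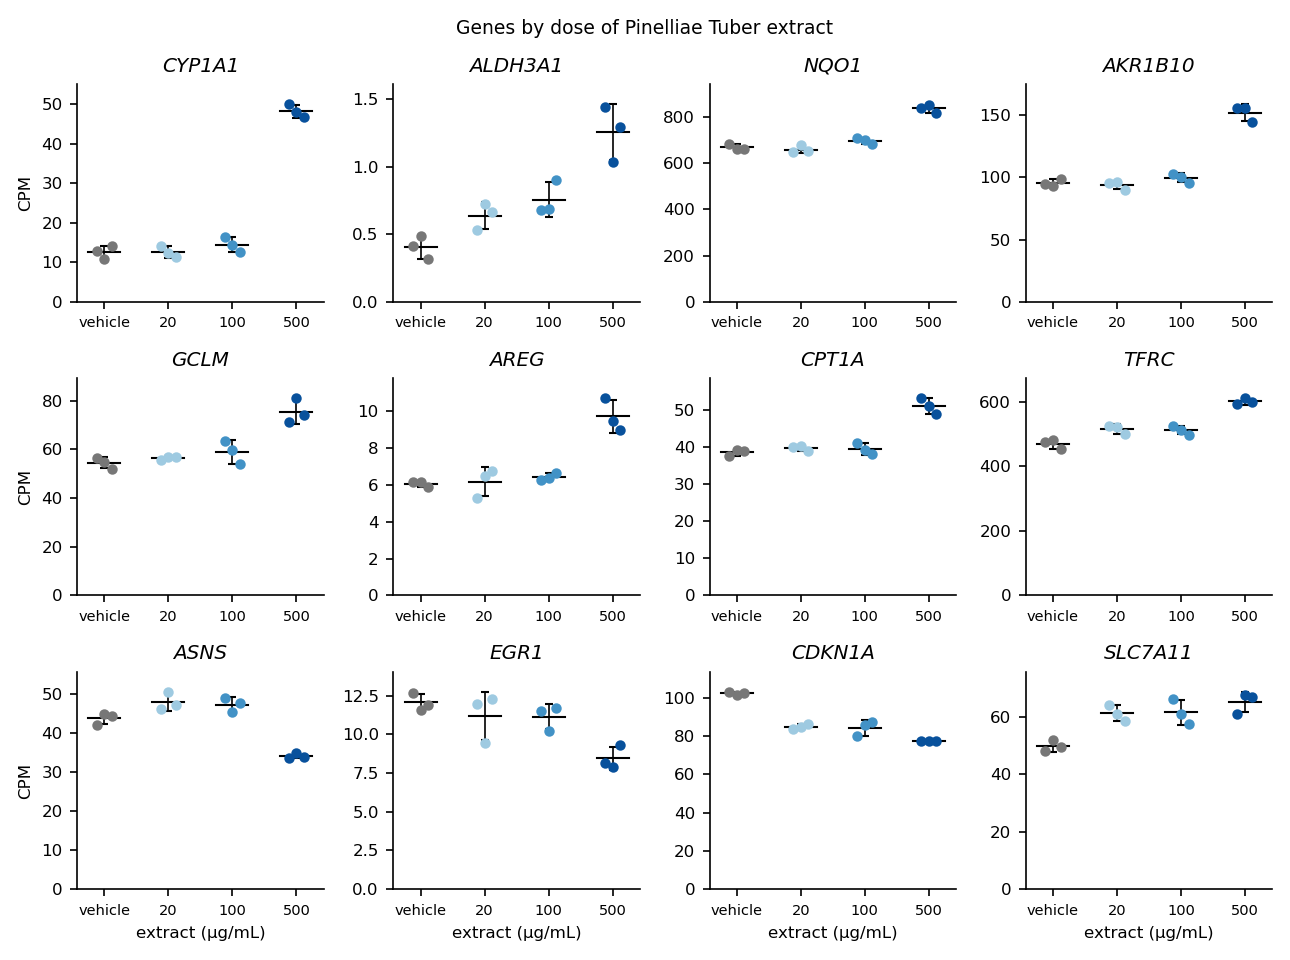
CPM of 12 genes on linear axes against the vehicle and 3 doses in µg/mL; points are libraries, bars the mean and whiskers the SD of 3 libraries. CYP1A1 stands at a mean of 48.2 CPM at 500 µg/mL with every other library at or below 16.3 CPM, whereas CDKN1A is below the vehicle at each dose.

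Within the extract, and so within 1 title prefix, the 500 µg/mL libraries were tested against the 20 µg/mL libraries. Here 710 genes were higher (5.09%) and 693 lower (4.97%), 10.1% in all, and the 1403 calls dropped to 921 without low dose replicate 2. Of the 24 cholesterol genes 23 were lower and 0 higher, with a median of -0.58, and of 16 fatty acid and LXR genes 10 were lower. HMGCS1 differed by -0.89 ± 0.039 (SE; adjusted p = 3.1e-22) and MVD by -0.98 ± 0.072 (SE; adjusted p = 2.4e-14). CYP1A1 was 3.85-fold higher (adjusted p = 4.8e-20), AQP3 1.85-fold and AKR1B10 1.62-fold. Of 22 NRF2 targets 13 were higher and 0 lower, with a median of 0.22. Of 25 glycolysis and hypoxia genes 6 were higher and 4 lower, with a median of 0.068. The number higher was 4 with RLE scaling, 2 without high dose replicate 1 or low dose replicate 3, 3 without high dose replicate 3 or low dose replicate 2, and 8 with DESeq2, so the balance of higher and lower was not stable. SLC7A11 (0.088), IGFBP1 (0.0004) and CCL20 (0.062) were not called between the doses, whereas ASNS (-0.49), TRIB3 (-0.37), EGR1 (-0.41), SLC2A1 (-0.31) and CDKN1A (-0.13) were called lower.

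Finally, the high dose was tested against the mean of 3 other ethanol extracts at 500 µg/mL, namely fresh ginger with 3 libraries (Zingiberis Rhizoma Recens), dried ginger with 2 (Zingiberis Rhizoma) and Scutellariae Radix with 3. No vehicle library enters this comparison. Scutellariae Radix shares the title prefix of Pinelliae Tuber and both gingers carry another, so prefix and extract are in part confounded here. It called 3874 genes higher (27.8%) and 3589 lower (25.7%) in Pinelliae Tuber, 53.5% of all genes, and each list count below reads against these shares. Of the 24 cholesterol genes 3 were higher and 16 lower, with a median of -0.15. HMGCS1 had 261, 256 and 257 CPM in Pinelliae Tuber, against 259, 276 and 289.7 CPM in fresh ginger, 242 and 249 CPM in dried ginger and 326, 342 and 334 CPM in Scutellariae Radix. The Pinelliae Tuber libraries lay within the spread of both gingers together and below Scutellariae Radix, and all 4 extracts were below the vehicle. DHCR7 separated the extracts. It had 145, 141 and 137 CPM in Pinelliae Tuber, against 235, 216 and 215 CPM in fresh ginger, 199.9 and 195 CPM in dried ginger and 228, 217 and 227 CPM in Scutellariae Radix (log2 -0.60 ± 0.030, SE; adjusted p = 1.1e-21). Every Pinelliae Tuber library was below every library of the other extracts.

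The extracts also differed outside the sterol genes. SV2A averaged 3.47 ± 0.333 CPM (SD, n = 3) in Pinelliae Tuber, against 6.81 ± 0.382 CPM (SD, n = 3) in fresh ginger, 7.25 and 7.92 CPM in the dried ginger libraries and 7.26 ± 0.182 CPM (SD, n = 3) in Scutellariae Radix, and its log2 difference was -1.06 ± 0.080 (SE; adjusted p = 1.7e-15). CYP1A1 averaged 48.2 ± 1.67 CPM in Pinelliae Tuber, near the 49.3 ± 2.53 CPM of fresh ginger and below the 470.1 ± 14.1 CPM of Scutellariae Radix (SD, n = 3 each), and dried ginger had 245 and 227 CPM. All 8 metallothionein and zinc genes were higher in Pinelliae Tuber, with a median of 1.52. MT1F had 56.6, 53.9 and 51.2 CPM in Pinelliae Tuber, against 9.41, 8.18 and 6.95 CPM in fresh ginger, 8.78 and 8.68 CPM in dried ginger and 18.3, 16.8 and 17.3 CPM in Scutellariae Radix, in a gene family whose copies share reads. All 20 mitosis genes were higher, with a median of 0.72, and CCNB1 differed by 0.70 ± 0.032 (SE). Of 22 NRF2 targets 21 were lower and 0 higher, with a median of -0.45, of 22 ATF4 and CHOP targets 19 were lower, with a median of -0.51, and IGFBP1 was 10.3-fold lower (adjusted p = 3.8e-29). FGB was 2.13-fold higher, and HAMP 3.56-fold. Against the vehicle, by contrast, 0 of the 8 metallothionein and zinc genes were called in Pinelliae Tuber, and neither FGB nor HAMP. Its mitosis list had 2 higher and 1 lower of 20 there, with a median of 0.0023. These differences between extracts therefore do not show a rise of Pinelliae Tuber over the vehicle.

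**Figure D5:**
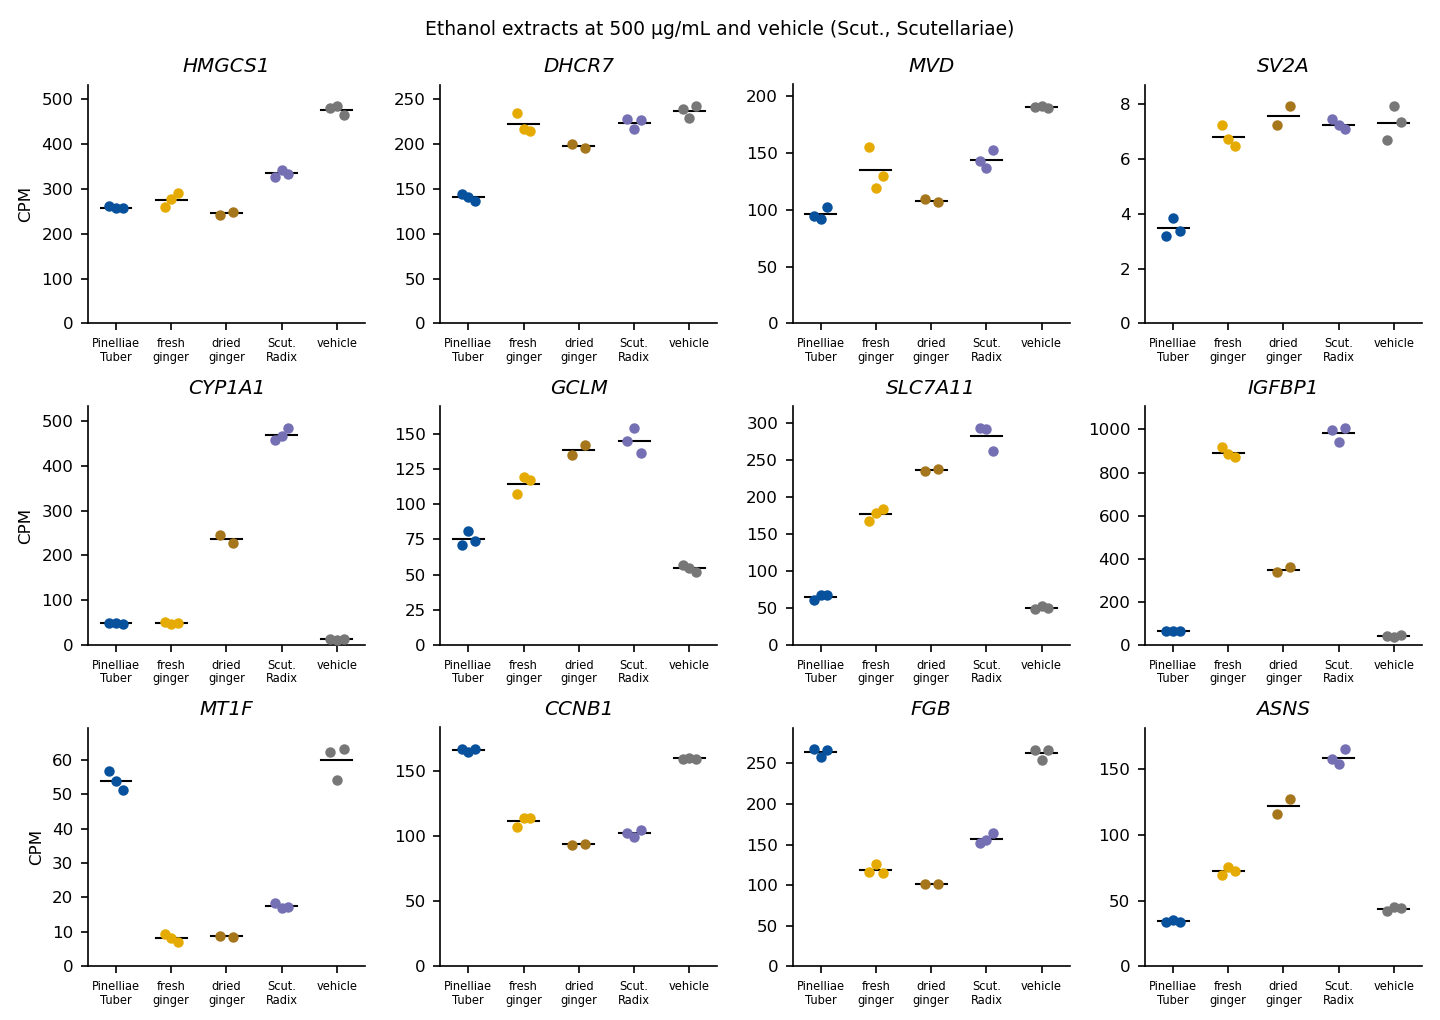
CPM on linear axes of 12 genes in Pinelliae Tuber, fresh ginger, dried ginger and Scutellariae Radix, each at 500 µg/mL, and in vehicle; points are libraries and bars their mean. HMGCS1 is below the vehicle in all 4 extracts, while DHCR7 and SV2A are lowest in Pinelliae Tuber.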

How the data were processed

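The deposited table held expected counts per gene, which the authors made with FastQC 0.11.9, Trim Galore 0.6.5, STAR 2.7.3a and RSEM 1.3.3 on GRCh38, per the submitters' processing notes; the role of each tool is not given there. Of the nonzero expected counts 75.26% were whole within 0.001, and all were rounded to whole numbers. Of the table's columns, 209 that match no sample used here were left out. The wortmannin control was not analysed here. Genes were named from GENCODE release 29 and current symbols.

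The 58 libraries in 24 groups entered 1 fit. The filter of 1 CPM in 3 or more libraries left 13945 genes, which were scaled by TMM, and tested with edgeR 4.0.16 in R 4.3.3 (limma 3.58.1; two-sided quasi-likelihood test, Benjamini-Hochberg adjusted p under 0.05 over all genes). The script was tested on simulated data. The common dispersion over the 58 libraries was 0.00181, a coefficient of variation of 4.25% between libraries of a group beyond counting noise. Genes with few reads vary more. Replicate pairs were checked in the groups compared here, and 0 agreed within sampling noise. Total expected counts of 24077535 to 28487847 per library of the compared groups set the precision. Alternatives were DESeq2 1.42.0, RLE scaling, no filter, a fit of only the groups compared, a replicate block and leaving out each Pinelliae Tuber or vehicle library of a comparison; libraries of the other extracts were not left out in turn. Tables and figures were made with Python 3.11.15, pandas 2.3.3 and matplotlib 3.10.9.

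The members and the 32 pathway and 6 marker lists were chosen with earlier results of these data known. Genes were named as the 15 largest changes each way against vehicle and 5 in other dose comparisons (called, at least 5 CPM in the higher group, groups not overlapping), up to 4 members of each list and a fixed panel; other list members named beside them were chosen after their values were seen. For the genes picked as largest changes, the lack of overlap between groups was required by this rule and is not a separate finding. Some list members are counted in the lists but not reported singly here.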

Additional observations from a re-analysis of the deposited data

How the results depend on the processing

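The 2188 genes called between the high dose and the vehicle became 2151 with RLE scaling, 1911 with no filter, 2264 when other groups were left out of the fit and 1785 with DESeq2. Leaving out 1 library gave 1329 (without vehicle replicate 3) to 1925. RLE scaling moved the split of that count to 1101 higher and 1050 lower. The smaller counts depended most on the processing, and the cause was not tested. The 40 genes at 100 µg/mL became 287 with no filter, 120 when other groups were left out of the fit and 47 with RLE scaling (15 higher and 32 lower), and 14 to 39 with 1 library left out, namely 14 without medium dose replicate 1, 16 without medium dose replicate 2 and 20 without vehicle replicate 1. The 38 genes at 20 µg/mL became 310, 109 and 33 under the same settings and 120 with DESeq2; they were 2 without vehicle replicate 1, 6 and 12 without low dose replicates 1 and 2, 23 without vehicle replicate 3 and 89 without vehicle replicate 2. The high against low dose count of 1403 fell to 921 without low dose replicate 2, 924 without high dose replicate 1 and 931 without low dose replicate 3, and was at most 1073 with a library left out. Against the other ethanol extracts the count was 6657 to 6776 with a Pinelliae Tuber library left out; the ginger and Scutellariae Radix libraries were not left out in turn.

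With the replicate number as a block, the counts were 2260, 52, 72, 1439 and 7498 for high, medium and low dose against vehicle, high against low dose and high dose against other ethanol extracts. Deviations of same-numbered high dose and vehicle libraries correlated at 0.007, 0.04 and 0.067, none over 0.1, and high dose replicate 1 was nearer to vehicle replicate 2 at 0.01. Unlike-numbered pairs of these groups lay between -0.053 and 0.01. Same-numbered high and low dose libraries correlated at 0.029, 0.068 and 0.024, and unlike-numbered ones at -0.046 to 0.016. Such small values cannot decide whether same-numbered libraries belong together, and the main test used no pairing.

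Of the genes named or listed, 179 called ones were followed through the alternatives and 0 reversed in sign. Many lost their call, however: 37 without high dose replicate 1, 37 without vehicle replicate 3 and 26 without high dose replicate 2. With no filter 15 lost it, with DESeq2 12 and with RLE scaling 10. The other called genes were not followed. Some of the 15 genes followed but not called crossed 0. HMOX1, ALB and FGB, at 0.004, 0.005 and 0.007, were -0.008, -0.006 and -0.004 with RLE scaling and with DESeq2, -0.004, -0.003 and -0.001 with no filter and -0.008, -0.006 and -0.005 with other groups left out. With 1 library left out, the log2 change lay between -0.022 and 0.033 for HMOX1, -0.104 and 0.038 for MT2A, -0.027 and 0.164 for ABCG5, -0.020 and 0.041 for ALB, -0.015 and 0.023 for FGB, -0.011 and 0.107 for MT1X, -0.049 and 0.007 for AFP, -0.040 and 0.106 for HAMP, -0.122 and 0.015 for ACTA1 and -0.122 and 0.045 for PCK1.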
